A study of Mus musculus with 2 samples.

Results

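The BCL2 survival proteins and pore effectors were followed as 8 genes: the survival genes Mcl1, Bcl2l10, Bcl2l1, Bcl2l2 and Bcl2, and the effector genes Bax, Bak1 and Bok. They were taken by gene symbol from a table of 53832 genes, and each symbol stood on 1 row. They were measured in 1 group of mouse cells, which the labels name small oocytes, with 2 libraries, replicates 1 and 2. Ovaries of female embryos were cultured under an added pressure of 33.3 kPa, cells positive for a CFP reporter of the germ cell gene Stella were sorted, and their polyadenylated RNA was sequenced. The study is about mechanical stress and oocyte dormancy, but there is no library without pressure among those used, so no effect of pressure is measured. The age of the embryos, the time in culture, and whether the replicates came from separate animals are not given in the labels, so the spread between the libraries may be technical.

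The BCL2 family controls whether the outer mitochondrial membrane stays closed. The survival proteins bind and hold back the effectors BAX and BAK; when BH3-only proteins occupy the survival proteins or activate the effectors, BAX and BAK form pores, cytochrome c leaves the mitochondria, and caspases are activated. In the mouse ovary this pathway is known for setting how many oocytes survive: loss of Bax leaves more oocytes, and loss of Mcl1 from oocytes depletes the follicle reserve.

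The libraries held 5019462 and 5274338 expected counts. All 9 oocyte markers were expressed, at a median TPM of 860, where TPM is the count divided by the length of the gene's merged exons and rescaled to a fixed sum within a library, and expressed means a TPM of 1 or more in each library. Of 22 markers of granulosa, stroma and perivascular, endothelial, and immune or erythroid cells, 3 were expressed: Col1a1, Pecam1 and Hbb-bs. Those 22 held 124 and 99 counts and summed to a TPM of 22.1 and 15.1, and 6 of them, among them Fshr, Tcf21, Emcn and Ptprc, had a count of 0 in both libraries. In replicates 1 and 2 the granulosa markers held 32 and 15 counts, and the stroma and perivascular markers 42 and 40. The endothelial markers held 44 and 37, and the immune and erythroid markers 6 and 7. The part of such cells in the lower levels and in the ratios between the libraries below was not tested. In RNA from many cells, fewer cells with a transcript and less of it per cell cannot be told apart.

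Mcl1 and Bax led the family, and each dominated its role. Of the 8 genes, 7 were expressed, or 87.5%, against 53.5% of 21722 protein-coding genes. The median TPM of the 8 was 20.8 in replicate 1 and 21.1 in replicate 2, against 2.51 and 2.57 over all protein-coding genes. Among the 11617 protein-coding genes that were expressed, the median was 24.0 and 24.2. Mcl1 alone made up 41.5% and 42.4% of the family's summed TPM, and Bax 36.0% and 34.0%.

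**Figure D1:**
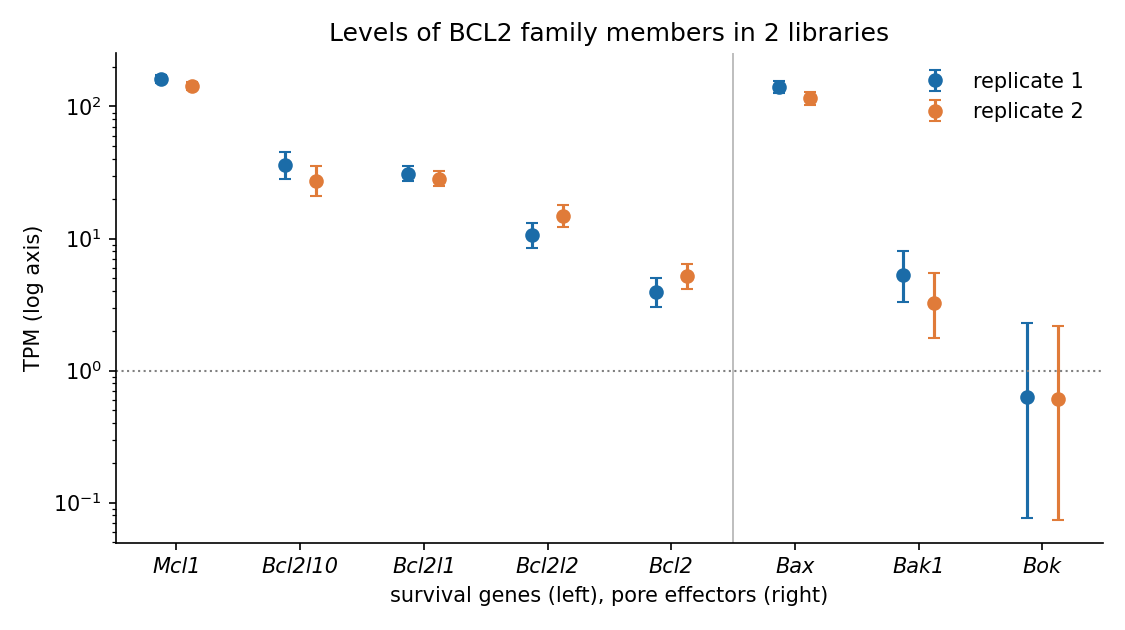
TPM (log axis) of the 8 genes in replicate 1 (blue) and replicate 2 (orange), survival genes left of the grey line and pore effectors right of it. Bars are exact Poisson 95% intervals of the counts, and the dotted line marks a TPM of 1. Mcl1 and Bax stand above a TPM of 100 in both libraries, and Bok lies under 1.

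The sequences before the transcription starts of Mcl1 and Bax are shown because these genes lead the survival and the effector role. Each run is the 250 bases before the start that RefSeq gives on GRCm38.p6, read 5′ to 3′ on the gene's strand. The Bax window adjoins the gene model used for the lengths. The Mcl1 window ends at 95658720, while its gene model begins at 95658788, so the 2 sources place the start of Mcl1 differently. Capitals mark the GC box GGGCGG, a motif bound by SP factors, or its reverse complement.

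Mcl1, chr3:95658471-95658720, plus strand: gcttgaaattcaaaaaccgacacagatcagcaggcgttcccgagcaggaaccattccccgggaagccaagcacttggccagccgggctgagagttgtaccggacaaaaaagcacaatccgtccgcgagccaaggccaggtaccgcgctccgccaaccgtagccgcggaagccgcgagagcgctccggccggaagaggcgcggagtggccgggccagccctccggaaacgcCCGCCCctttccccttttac

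Bax, chr7:45466899-45467148, minus strand: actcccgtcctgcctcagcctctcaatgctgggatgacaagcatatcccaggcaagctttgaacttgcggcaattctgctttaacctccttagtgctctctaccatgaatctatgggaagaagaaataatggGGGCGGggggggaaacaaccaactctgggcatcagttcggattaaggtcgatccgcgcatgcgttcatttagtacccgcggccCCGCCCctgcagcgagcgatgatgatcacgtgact

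The Mcl1 window held 26 CpG dinucleotides, 1 GC box and 1 E-box (CANNTG), and 64.4% of its bases were G or C. The Bax window held 14 CpG dinucleotides, 2 GC boxes and 1 E-box, with 54.0% G or C. Neither held a CCAAT box (CCAAT) or a TATA box (TATAAA), and no motif overlapped another. Both strands were searched. Over 32851 promoters in the same table, 32.7% held a GC box, 66.2% an E-box, 33.8% a CCAAT box and 12.4% a TATA box, and the median window had 6 CpG dinucleotides and 52.4% G or C. The 7 members in the table had 9 windows. Bcl2 had the most GC boxes, 7, with 36 CpG dinucleotides, while its TPM was the lowest of the survival genes. These matches describe the letters of each window and not sites in use.

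Of the survival genes, Mcl1 (ENSMUSG00000038612, chromosome 3, 95658788 to 95663176), whose short-lived protein binds BAK and BH3-only proteins, had 955 and 878 counts. Its TPM was 162 in replicate 1 and 143 in replicate 2, or 152 ± 13.2 (SD, n = 2), above 95.5% of protein-coding genes. Mcl1 made up 66.5% and 65.4% of the survival genes' summed TPM. The other 4 survival genes together reached 81.7 and 75.9.

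Bcl2l10 (ENSMUSG00000032191, chromosome 9, 75347758 to 75351632), a divergent family member also known as Diva or Boo and found at high levels in ovary, had 76 and 60 counts. Its TPM was 36.1 and 27.4, or 31.7 ± 6.12. Bcl2l10 was placed with the survival genes when the lists were set, and whether it protects these cells or promotes death was not tested. Bcl2l1 (ENSMUSG00000007659, chromosome 2, 152780668 to 152831728) encodes BCL-X, needed for the survival of germ cells before birth. It had 246 and 234 counts and a TPM of 31.1 and 28.4, or 29.7 ± 1.85. The levels of these genes overlapped between the libraries, with Bcl2l10 the higher in replicate 1 and Bcl2l1 the higher in replicate 2. The gene-level counts do not separate the long survival isoform of Bcl2l1 from the short one, which promotes death.

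Bcl2l2 (ENSMUSG00000089682, chromosome 14, 54883377 to 54888234) encodes BCL-W, known for its role in spermatogenesis. It had 81.8 and 119 counts and a TPM of 10.6 and 14.9, or 12.7 ± 3.002. Bcl2 (ENSMUSG00000057329, chromosome 1, 106538178 to 106714274), the founding survival gene, had 62 and 85 counts and a TPM of 3.92 and 5.17, or 4.55 ± 0.886. Bcl2l2 and Bcl2 were both higher in replicate 2, while the other 3 survival genes were higher in replicate 1. The level of Mcl1 was 41.3 times that of Bcl2 in replicate 1 and 27.7 times in replicate 2.

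Among the effectors, Bax (ENSMUSG00000003873, chromosome 7, 45461697 to 45466898), whose protein moves from the cytosol to mitochondria when activated, had 382 and 325 counts. Its TPM was 141 and 115, or 128 ± 18.1, above 94.4% of protein-coding genes. Bak1 (ENSMUSG00000057789, chromosome 17, 27019810 to 27029009), whose protein sits in the outer mitochondrial membrane, had 22 and 14 counts and a TPM of 5.29 and 3.24, or 4.27 ± 1.45. Bax stood above Bak1 by 26.6 times in replicate 1 and 35.5 times in replicate 2, and made up 96.0% and 96.8% of the effectors' summed TPM.

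Bok (ENSMUSG00000026278, chromosome 1, 93685660 to 93695764), an effector first found in the rat ovary and not held back by the survival proteins, had 2 counts in each library. Its TPM was 0.629 and 0.606, under the 0.944 and 0.909 that 3 counts would give. At this depth Bok could not be told from that limit, and no fold is given against it.

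In the order of TPM, from Mcl1 through Bax, Bcl2l10, Bcl2l1, Bcl2l2, Bcl2 and Bak1 to Bok, 3 of 7 neighbouring steps were larger than the spread. A step counted where both libraries of one gene lay above both of the other and the Poisson 95% intervals were apart in each library. These were the steps between Bax and Bcl2l10, between Bcl2l1 and Bcl2l2, and between Bcl2l2 and Bcl2. Mcl1 and Bax, Bcl2l10 and Bcl2l1, Bcl2 and Bak1, and Bak1 and Bok did not differ beyond their spread. All of the other 24 of 28 pairs did in TPM with merged exons, though some of these orders changed in CPM, as given below. Counting error is all that these intervals hold, because they are Poisson intervals of the counts. Any PCR copies of a molecule counted as separate reads would make them too narrow.

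Survival transcripts outweighed effector transcripts in both libraries. The summed TPM was 243 for the 5 survival genes against 146 for the 3 effectors in replicate 1, and 219 against 119 in replicate 2. The ratio was 1.66 and 1.84, or 0.81 ± 0.11 on the log2 scale. For the leading genes alone, Mcl1 over Bax, the ratio was 1.15 and 1.25, a difference of 0.26 ± 0.08 in log2(TPM + 1). Without Mcl1 the survival sum in TPM lay below the effector sum in both libraries. In CPM, without length scaling, it lay above, at 92.8 against 81.0 in replicate 1 and 94.4 against 64.7 in replicate 2. These are RNA levels, and the amounts of the proteins were not measured.

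**Figure D2:**
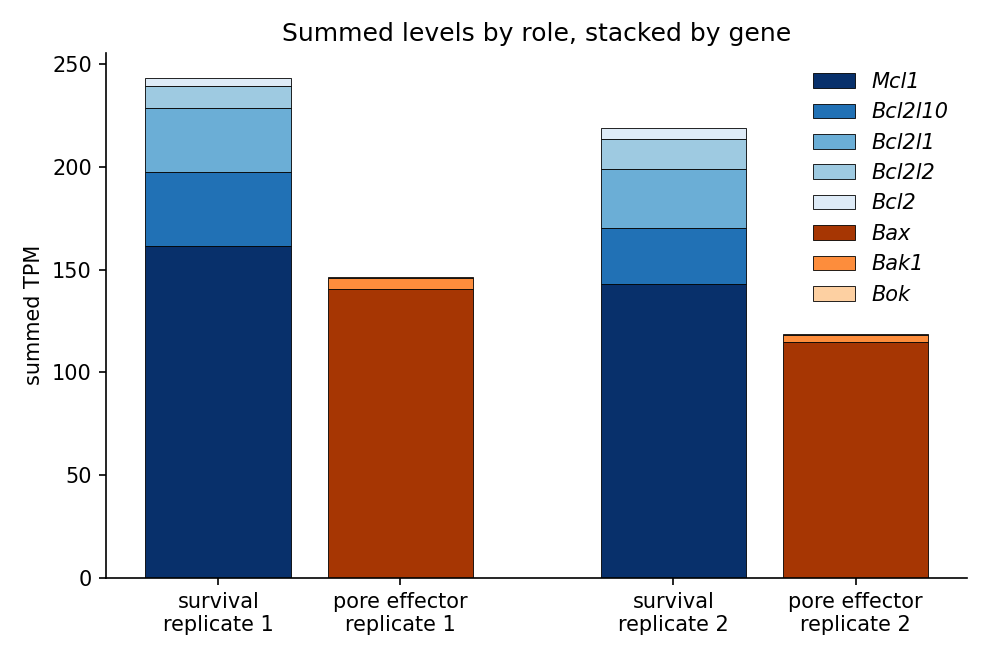
Summed TPM of the 5 survival genes (blue) and the 3 pore effectors (orange) in each library, stacked by gene. The survival sum is 243 and 219 against 146 and 119 for the effectors, and Mcl1 and Bax fill most of each bar.

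The order of Mcl1 and Bax depended on the gene length used. The merged exons of Mcl1 span 3418 bases, the same as its longest transcript. Those of Bax span 1576 bases over 6 annotated transcripts, against 1100 for the longest. With the longest transcript as the length, Mcl1 stood at 119 ± 9.96 and Bax at 143 ± 19.9 (SD, n = 2), and Mcl1 over Bax was 0.804 and 0.869. The ratio of survival to effector sums was then 1.31 and 1.45. In CPM, counts scaled to the library total without length, Mcl1 over Bax was 2.497 and 2.702 and the ratio of sums 3.495 and 4.04. The survival sum was the larger on all 3 scales, while no order of Mcl1 and Bax held on all of them.

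The place of the other survival genes also moved with length. Bcl2l10 is short, with 1220 bases, and Bcl2 is long, with 9157. Bcl2l10 averaged 31.7 TPM and Bcl2 4.55, but in CPM they averaged 13.3 ± 2.66 and 14.2 ± 2.66. Bcl2l2, below Bcl2l10 in TPM, averaged 19.4 ± 4.43 CPM and stood above Bcl2l10 in both libraries on that scale. Bcl2l1 averaged 46.7 ± 3.28 CPM, above Bcl2l10, and with the longest transcript as the length its TPM was 41.4 ± 2.48 against 24.7 ± 4.71 for Bcl2l10. By mean, Bak1 and Bok were the lowest on each of the 3 scales. In replicate 1, though, Bcl2 lay below Bak1 in TPM with either length.

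**Figure D3:**
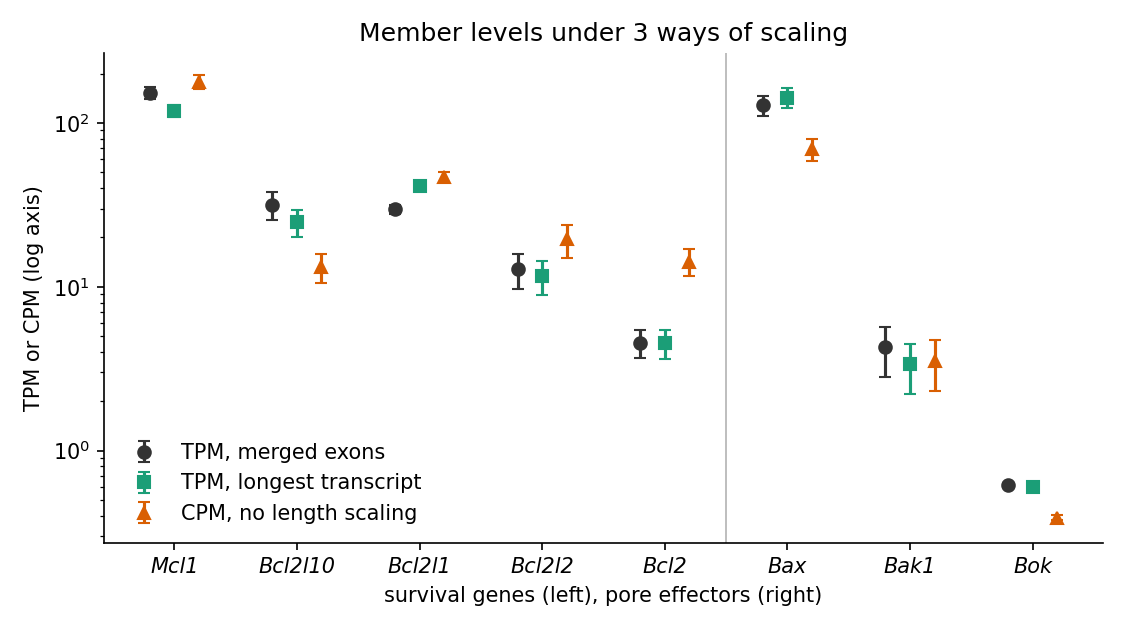
Mean level of each gene over both libraries (log axis) as TPM with merged exons (circles), TPM with the longest transcript (squares) and CPM without length scaling (triangles), with bars of 1 SD (n = 2). Bax lies above Mcl1 only on the scale of the longest transcript, and Bcl2l10 and Bcl2 lie closest in CPM.

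Annotated neighbours share sequence with some of the genes. Of the 50-base stretches in the annotated Bcl2l2 transcripts, 12.1% also occur in Gm20521, an overlapping protein-coding gene on the same strand, which had 6.83 and 0 counts. For Bax, 8.51% occur in Gm45808 on the same strand, with 3.49 and 0 counts. How the counts were split within each pair is uncertain, and the fractional counts of Bax and Bcl2l2 were found in replicate 1, the library in which the neighbours had counts. Bak1 lies opposite Ggnbp1, annotated under 2 IDs with 155 and 225 counts and with 144 and 161 counts, and 17.1% of its stretches are the reverse complement of stretches in that gene. The libraries were made with a strand-specific kit, but the strand setting of the counting is not given in the sources used here, so the 22 and 14 counts of Bak1 are uncertain. For Bcl2, 5.08% are the reverse complement of stretches in D630008O14Rik, which had 0 counts in both libraries. Mcl1, Bcl2l1, Bcl2l10 and Bok shared no such stretch on either strand.

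Between the libraries, replicate 1 over replicate 2, none of the 7 genes with enough counts passed the test. The two-sided exact binomial test set each gene's counts against the effective library sizes, with Benjamini-Hochberg adjustment over 12182 genes, of which 7.84% were called at an adjusted p under 0.05. At an unadjusted p under 0.05 there were 3 of the 7, Mcl1, Bax and Bcl2l2, against 20.7% of all genes tested. At 2-fold or more, 0 of the 7 and 0.673% of all genes were called. With the biological coefficient of variation preset to 0.1, the negative binomial exact test of edgeR called 0 of the 7, against 0.115% of all genes. At that share, 0 of 7 says little about these genes. In that test 0 of the 7 reached an unadjusted p under 0.05, and no share over all genes was taken. Estimated from the 2 libraries over all genes tested, this coefficient was 7.31%, below the preset. Bok was left out for low counts. The test compares 2 libraries of 1 treatment and allows for counting noise only, while over all tested genes chi-square per degree of freedom was 3.55, where counting noise alone gives about 1.

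Mcl1 had a log2 ratio of 0.19 (SE 0.07 from counting noise, adjusted p = 0.0615, exact binomial test). Bax had a log2 ratio of 0.30 (SE 0.11, adjusted p = 0.0659, exact binomial test). Bcl2l2 had a log2 ratio of -0.47 (SE 0.21, adjusted p = 0.156, exact binomial test). The genes with fewer counts had wider errors: Bak1 stood at 0.70 (SE 0.49), Bcl2l10 at 0.41 (SE 0.25), Bcl2 at -0.38 (SE 0.24) and Bcl2l1 at 0.14 (SE 0.13). The 7 ratios had a median of 0.19, with 5 above 0, against a median of 0.00 over all genes tested. When the counts of Gm45808 were added to those of Bax, its ratio was 0.32 and its adjusted p 0.0493 in the exact binomial test, just under the threshold.

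**Figure D4:**
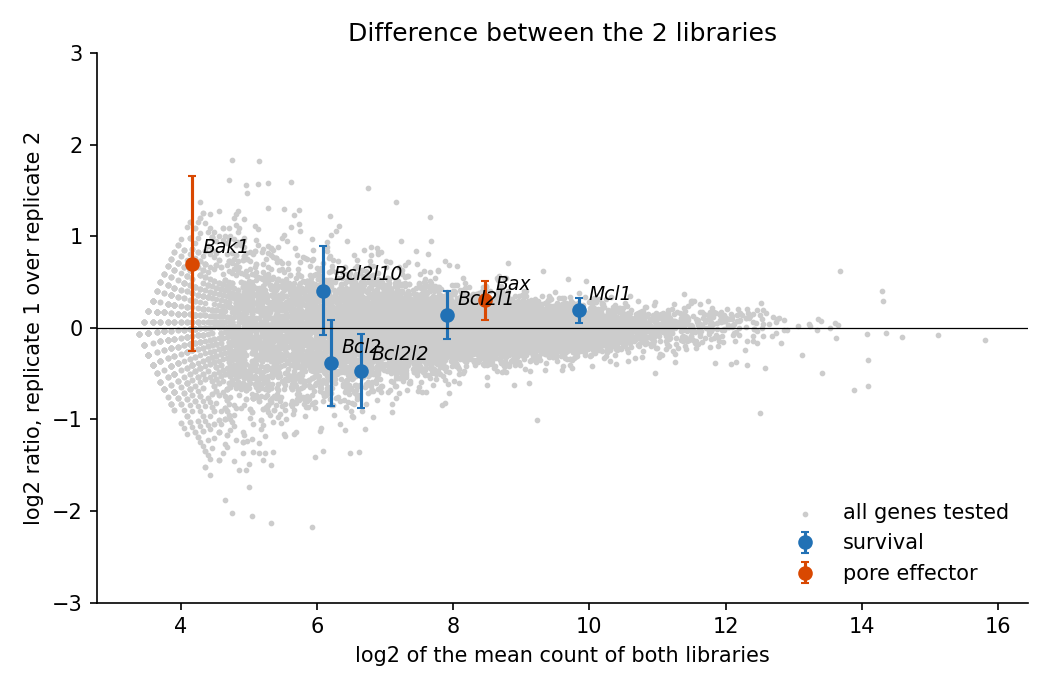
Log2 ratio of replicate 1 over replicate 2 against the log2 of the mean count for all 12182 genes tested (grey), with survival genes in blue and pore effectors in orange. Bars are 95% intervals from counting noise. The 7 genes lie within the cloud of all genes, from -0.47 for Bcl2l2 to 0.70 for Bak1.

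Oocyte markers also had ratios away from 0. Of the 9 oocyte markers, 1 was called higher in replicate 1 and 5 lower, against 3.59% and 4.25% of all genes. Those shares are not matched for counts. The markers had from 1247 counts (Figla, replicate 2) to 12989 (Zp2, replicate 2). At such counts a test that allows for counting noise only can call small ratios, as for Kit at -0.09. Zp2, Zp3 and Gdf9 had log2 ratios of -0.49, -0.39 and -0.36. Their part in the ratios of the BCL2 genes was not tested.

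The BH3-only genes, whose proteins counter the survival proteins or activate BAX and BAK, stood below Mcl1 and Bax. Of 8, 7 were expressed, at a median TPM of 6.84. Bid, cut by caspases into an activator of BAX and BAK, averaged 22.6 ± 0.951, and Bad, a partner of BCL-X, 18.5 ± 2.07. At the low end, Bik averaged 1.44 ± 0.544 and Hrk had 0 and 1 counts. The 8 together summed to a TPM of 81.4 and 65.8, below Mcl1 alone in both libraries. Of 6 tested, 1 was called between the libraries, higher in replicate 1, against 3.59% of all genes called higher and 7.84% either way. This was Bbc3, which encodes PUMA, a target of p53 and p63, with a log2 ratio of 1.14 (SE 0.30, adjusted p = 0.00322, exact binomial test) and 72.0 and 34 counts. Bbc3 was named after its value was seen, and its p rests on a test that allows for counting noise only.

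**Figure D5:**
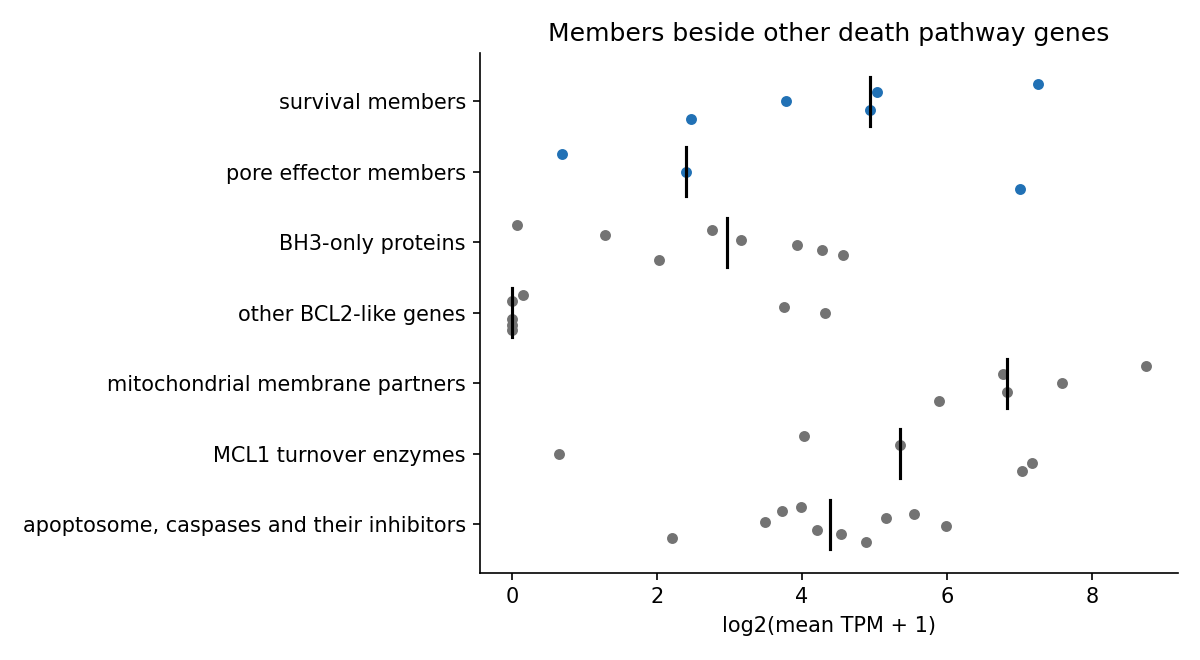
Mean level of each gene over both libraries, as log2(TPM + 1), for the BCL2 survival genes and pore effectors (blue) and 5 other lists of the pathway (grey), with the median of each list as a black line. The medians run from a TPM of 0 for the other BCL2-like genes to 112 for the mitochondrial membrane partners.

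Of 7 other BCL2-like genes, 2 were expressed: Bcl2l12 at 18.9 ± 1.93 and Bcl2l13 at 12.5 ± 1.49. The survival genes Bcl2a1a, Bcl2a1b and Bcl2a1d, known from blood cells, had 0 counts in both libraries, as had Bcl2l14, and Bcl2l15 had 1 and 0. The Bcl2a1 copies are close paralogues, so their counts could be shared, but none had any. Neither expressed gene was called between the libraries.

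The list of mitochondrial membrane partners, which also holds a gene of the endoplasmic reticulum, had the highest median of the pathway lists. Its median TPM was 112, below the means of Mcl1 (152) and Bax (128), and all 5 genes were expressed. Bcap31, an endoplasmic reticulum protein that passes death signals to mitochondria, averaged 428 ± 12.5, and the anion channel Vdac3 192 ± 3.78. Tmbim6, also called BAX inhibitor 1, averaged 108 ± 0.634, and Vdac1 58.3 ± 2.41. Vdac2, the channel that binds BAK, stood at 113 and 112. None was called between the libraries.

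Of 5 enzymes that set the turnover of MCL1, 4 were expressed, at a median of 39.7. The deubiquitinase Usp9x, which stabilises MCL1, averaged 143 ± 8.29 and the ubiquitin ligase Huwe1, which marks MCL1 for destruction, 130 ± 9.88. The ligase Btrc averaged 15.3 ± 0.513, and the deubiquitinase Usp13 had 9 and 6 counts. Huwe1 had 4994 and 5778 counts and Usp9x 3565 and 4020. At such counts a test that allows for counting noise only can call small ratios. Between the libraries, 2 of 4 tested were called, both lower in replicate 1, against 4.25% of all genes called lower and 7.84% either way. These were Huwe1 at -0.14 (SE 0.03, adjusted p = 3.15e-05, exact binomial test) and Usp9x at -0.11 (SE 0.03, adjusted p = 0.0260, exact binomial test).

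All 10 listed genes of the apoptosome, the caspases and their inhibitors were expressed, at a median of 19.8. Diablo, whose protein leaves the mitochondria and blocks caspase inhibitors, averaged 62.6 ± 1.32, and the inhibitor Birc2 45.9 ± 0.328. The lowest were Apaf1, the scaffold of the apoptosome, at 3.62 ± 0.0358, and Htra2, a protease released from mitochondria, at 10.2 ± 1.09. None of the 10 was called between the libraries.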

How the data were processed

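RNA-seq values of 2 libraries of 1 group were used. Per the submitters' processing notes, fastp 0.20.0, STAR 2.7.7a and RSEM were run on GRCm38; settings and annotation release are not given in the sources used. The authors deposited expected counts, estimated per gene with RSEM and scaled neither for depth nor length. Values with a fraction, beyond a tolerance of 1e-06, made up 7.08% and 6.97%. The table has 21 further columns that match no sample of the series, which were not used. TPM and CPM were computed here with gene lengths from GENCODE release M21 (53579 of 53832 IDs matched). For the test between libraries, counts were rounded, filtered with filterByExpr of edgeR 4.0.16 and scaled by TMM. They were tested with a two-sided exact binomial test in R 4.3.3. The step was also run on simulated data that held counting noise only. Such data cannot show how the test behaves at the larger spread of these libraries. Log2 ratios used a prior count of 0.5. Sequences are from RefSeq. Alternatives were CPM, the longest transcript as length, totals without mitochondrial genes, a pseudocount of 0.1 in place of 1, a threshold of TPM 5 in place of 1, DESeq2 1.42.0 size factors, library totals, no filter, a negative binomial test, a 2-fold minimum and each library left out. Summing overlapping genes was added after seeing the data. The 8 genes and all lists were chosen with earlier results of these data known. Named genes were the 8, the 2 highest and 2 lowest of each pathway list, those at 0 counts and overlapping genes; others named are list members with their roles. Some genes of the pathway lists are not reported here. No genes were named for likeness of pattern, since 2 libraries give none.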

Additional observations from a re-analysis of the deposited data

How the results depend on the processing

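With 2 libraries of 1 group, each SD rests on 1 difference, and no control level is measured. Counts under about 100 limit Bcl2, Bcl2l10, Bak1 and Bok most, and also Bcl2l2 in replicate 1, with 81.8 counts. No paired analysis was possible because both libraries belong to 1 group. Leaving out a library gave a median TPM of the 8 genes of 20.8 to 21.1, a log2 ratio of survival to effector sums of 0.73 to 0.88 and a difference of Mcl1 to Bax of 0.20 to 0.31. The median over the 8 genes, 20.99, was 17.5 in CPM, 18.2 TPM with the longest transcript and 23.3 TPM with totals without mitochondrial genes. The log2 ratio of sums, 0.81, was 1.91 in CPM and 0.46 with the longest transcript. The difference of Mcl1 to Bax, 0.26, was 1.36 in CPM and turned to -0.26 with the longest transcript, where only the lengths were changed. The log2 ratio of the survival sum without Mcl1 to the effector sum, -0.74, turned to 0.37 in CPM, an alternative added after seeing the data. At a TPM of 5, 5 genes were expressed in place of 7. Of the 7 genes tested between the libraries, 0 were called under DESeq2 size factors, library totals or no filter. Over all genes tested, these settings called 7.95%, 7.91% and 4.39%. The negative binomial test and the 2-fold minimum also called 0 of the 7, against 0.115% and 0.673% of all genes. At such shares, 0 of 7 is near the share over all genes. With overlapping genes summed, 1 of the 7, Bax, was called, against 7.85% of all genes. Its adjusted p ran from 0.0493 to 1 over these alternatives and that of Mcl1 from 0.0534 to 1. The negative binomial test called 14 genes in all, against 955 in the exact binomial test.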
